A study of Mus musculus with 4 samples.

Results

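The kinesin motor family comprised the genes of the count table whose symbol is Kif with a number and at most 1 letter, or Kifc with a number. This name rule gave 41 of the 55453 genes. The counts come from 4 messenger RNA libraries of mouse oocytes held at the germinal vesicle stage and taken straight from the ovary. The 2 control libraries are labelled as wild type, and the other 2 come from oocytes with a knockdown of Parp12, a gene of the PARP family of ADP-ribosyltransferases. The means of the knockdown, the mouse strain, the age of the animals and the number of oocytes per library are details the sources used here do not give.

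Kinesins are motor proteins that use ATP to move along microtubules or to take microtubule ends apart. Most walk towards the plus end, the kinesin-14 motors walk towards the minus end, and the kinesin-13 motors depolymerise. An oocyte in prophase arrest has no spindle yet, but it stores the messenger RNA from which the meiotic spindle is later built, and in the mouse that spindle forms without centrioles. Other kinesins carry vesicles, organelles and messenger RNA, or build and regulate cilia.

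Library totals ran from 35805122 to 45230773 counts. Parp12 counts were 14279 and 9419 without the knockdown against 32 and 86 with it, which matches the labels. All 12 oocyte markers had counts. Together they made up 28410 and 29520 CPM, meaning counts per 1000000 counts of a library, in controls and 30010 and 31230 CPM in knockdowns. Both knockdowns thus lay above both controls. At an unadjusted p under 0.05 by the edgeR test described below, 3 of the 12 were higher and 1 lower. Over all tested genes, 2.94% were higher and 2.57% lower at that limit. Of 16 granulosa and cumulus markers, 8 had no count in any library, among them Amh and Foxl2, and the list summed to 139.0 and 145.9 CPM in controls and to 119.5 and 140.3 CPM in knockdowns, nearly all of it from Nr5a2 and Cyp19a1. Theca and stroma markers summed to between 1.75 and 4.74 CPM, and blood and immune markers to between 93.95 and 102.4 CPM, of which Pecam1 alone gave between 91.55 and 101.3 CPM while Adgre1, Lyz2, Hbb-bt and Cdh5 were at 0. Whether RNA of other ovarian cells took part in any value was not tested.

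No kinesin gene differed between knockdown and control by edgeR's quasi-likelihood test. The low-count filter left 33 members, and 0 of them passed an adjusted p of 0.05, where 0.0063% of all 15868 tested genes did so (1 gene, Parp12). The smallest adjusted p of a member was 0.835. At an unadjusted p under 0.05, edgeR listed 1 member higher (Kif15), with a background of 2.94%, and 2 lower (Kifc2 and Kif3c), with a background of 2.57%. DESeq2 called 1 of the 35 members to which it gave an adjusted p, which was Kif15, where its background was 1.86% of genes called in either direction and 1.07% called higher. At an unadjusted DESeq2 p under 0.05 there were 8 of 36 members, with a background of 10.2% of genes. limma-voom called 0 members, with 1 of 33 at an unadjusted p under 0.05 and a background of 4.71%.

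The family took nearly the same share of counts in every library. Its summed level was 4440 and 4350 CPM in the control libraries and 4445 and 4352 CPM in the knockdown libraries, or between 0.435% and 0.444% of all counts. The median log2 fold change of the tested members was 0.00, as it was over all tested genes. Of the members, 17 lay above 0 and 16 below, where 50.4% of all tested genes lay above 0. Among these members, Kif18b and Kifc1 changed sign with other scalings. Both knockdowns lay above both controls for 6 members (18.2%) against 18.0% of all tested genes. They lay below for 7 members (21.2%) against 16.8% of all tested genes. Kifc2 had no counts in the knockdowns. At its limit of 3 counts a library it still lies below the median, so the median could not change. Nothing in the labels says that the libraries came from separate animals or collections, so the p-values reflect only how far these libraries vary, which can be technical.

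**Figure D1:**
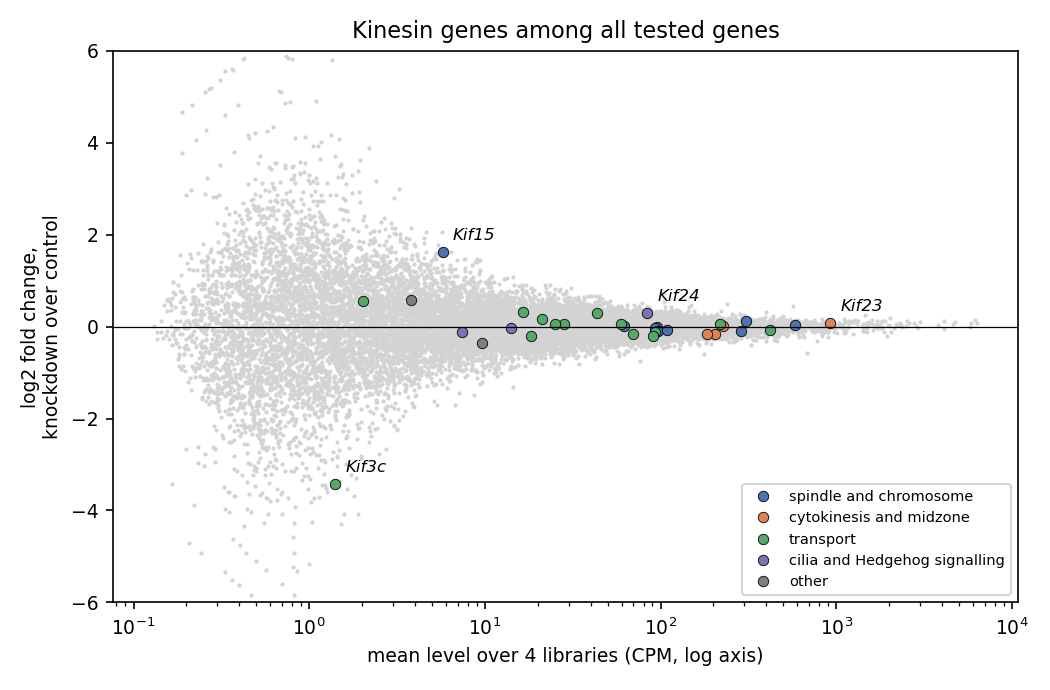
Log2 fold change (knockdown over control) against the mean level in CPM on a log axis, for all tested genes (grey) and the tested kinesins (coloured by role). Genes with a log2 fold change beyond 6 in either direction, Kifc2 among them, are outside the plot; apart from Kif15 and Kif3c the kinesins lie close to 0 within the band of other genes of their level.

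Levels within the family spanned more than 3 orders of magnitude once divided by exon length. The unit used to compare genes is CPM per kilobase of the summed exon length listed in the table. Kif23 was highest, with a mean over the 4 libraries of 116.4 CPM per kilobase and a range from 109.8 to 119.9. Kif4 followed at 105.1 (99.1 to 108.6), then Kif17 at 92.1 (87.3 to 95.5). The ranges of these 3 genes did not overlap. Kif2c at 65.4 and Kif22 at 62.8 had overlapping ranges and so have no order. Kif20a stood alone at 46.8, with its highest and lowest values clear of both neighbours. Kif5c, Kifc1, Kif20b and Kif3a then ran from 30.5 down to 26.0, each overlapping the next. Kif14, at 21.9, and Kif18b, at 17.5, followed in that order without overlap between them. The range of Kif18b (15.65 to 19.16) was clear of the next gene, Kif2a, but overlapped that of Kifc3 (11.65 to 15.9). Kif2a, Kifc3, Kif11, Kif18a, Kif24 and Kif16b ran from 14.5 down to 9.98, each overlapping the next. After a step of 1.98-fold came Kif3b at 5.04, and all lower members had lower means, led by Kif1b. The most abundant 4 (Kif23, Kif4, Kif17 and Kif2c) carried between 50% and 52.3% of the family's level per kilobase in each library.

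The order depends on the length used. With the length of 1 principal GENCODE transcript per gene in place of all exons, 22 members changed place, by at most 7 places, and Kif23 stayed first. Behind it came Kif22 at 145.6 CPM per kilobase, Kif17 at 122.2, Kif4 at 116.3 and Kif2c at 100.5. Kif22 thus replaced Kif2c among the most abundant 4, and Kif17 passed Kif4. The libraries were made from RNA selected for poly(A) tails, so the amount of a messenger and the share of it with a tail cannot be told apart. In these bulk libraries a smaller number of cells and less RNA per cell cannot be told apart either.

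CHR letters, a promoter motif of cell division genes, were found mainly in RefSeq promoter windows of division motors. The RefSeq promoter table (GRCm38.p6) held 36 windows for 32 members, each from 250 bases before to 50 bases after an annotated start. Each was searched on both strands for TTTGAA, a form of this cell cycle genes homology region (CHR) through which the DREAM and MuvB complexes are known to time genes of G2 and mitosis, and for CCAAT, the box bound by NF-Y. CHR letters occurred in 13 windows of the family (36.1%) and in 17.9% of all 32851 windows of the table. CCAAT letters occurred in 16 (44.4%) and in 37.4% of all windows. Both together were in 9 (25%) and in 7.0% of all. Among tested genes the shares with both were 30% of member windows and 5.4% of all windows. By role, CHR letters were in 7 of 11 windows of spindle and chromosome motors and in 3 of 3 of cytokinesis motors, but in 1 of 13 windows of transport motors, and both motifs were in 5, 2 and 0 windows of these roles. The windows with CHR letters of Kif4, Kif14, Kif2c, Kif27 and Kif1a lie wholly inside their GENCODE genes, past the outermost start. The Kif1a window is the only transport window with CHR letters, and Kif20a had no window. No test was made of these shares, and whether the oocyte uses these starts was not tested.

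The windows printed here belong to 3 abundant division motors that hold both motifs (Kif23, Kif4 and Kif22), to Kif15, which had the largest difference of a member with counts in all libraries, and to Kif17, a transport motor of nearly the level of Kif4 but with neither motif. They lie at chr9:61946750-61947049 on the minus strand (Kif23), chrX:100625815-100626114 on the plus strand (Kif4), chr7:127042371-127042670 on the minus strand (Kif22), chr9:122950831-122951130 on the plus strand (Kif15) and chr4:138262001-138262300 on the plus strand (Kif17). All are written 5′ to 3′ along the gene. Capitals mark TTTGAA and CCAAT in either orientation (TTCAAA and ATTGG on the other strand).
Kif23: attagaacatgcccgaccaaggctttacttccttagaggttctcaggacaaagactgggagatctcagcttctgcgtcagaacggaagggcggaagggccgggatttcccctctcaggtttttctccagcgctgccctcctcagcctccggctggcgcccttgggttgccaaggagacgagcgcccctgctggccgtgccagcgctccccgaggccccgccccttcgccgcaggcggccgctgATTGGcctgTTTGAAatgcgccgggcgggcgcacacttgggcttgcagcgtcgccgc
Kif4: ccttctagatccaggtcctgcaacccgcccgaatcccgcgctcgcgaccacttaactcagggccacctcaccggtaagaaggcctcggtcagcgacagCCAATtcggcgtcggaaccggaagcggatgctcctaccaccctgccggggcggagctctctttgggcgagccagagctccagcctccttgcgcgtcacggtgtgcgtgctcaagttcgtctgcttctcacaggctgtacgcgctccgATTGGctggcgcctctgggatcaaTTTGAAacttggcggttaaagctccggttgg
Kif22: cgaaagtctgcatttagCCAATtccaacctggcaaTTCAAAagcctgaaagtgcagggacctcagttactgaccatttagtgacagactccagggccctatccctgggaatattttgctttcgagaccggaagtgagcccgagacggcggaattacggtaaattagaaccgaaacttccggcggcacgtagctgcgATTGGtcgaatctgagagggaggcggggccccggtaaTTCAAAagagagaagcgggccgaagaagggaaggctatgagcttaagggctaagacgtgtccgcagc
Kif15: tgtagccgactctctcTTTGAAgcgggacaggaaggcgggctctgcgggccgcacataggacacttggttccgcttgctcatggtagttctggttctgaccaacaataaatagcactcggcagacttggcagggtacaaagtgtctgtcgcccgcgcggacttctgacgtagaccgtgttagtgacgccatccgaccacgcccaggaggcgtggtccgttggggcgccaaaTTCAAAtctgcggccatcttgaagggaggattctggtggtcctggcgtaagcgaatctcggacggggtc
Kif17: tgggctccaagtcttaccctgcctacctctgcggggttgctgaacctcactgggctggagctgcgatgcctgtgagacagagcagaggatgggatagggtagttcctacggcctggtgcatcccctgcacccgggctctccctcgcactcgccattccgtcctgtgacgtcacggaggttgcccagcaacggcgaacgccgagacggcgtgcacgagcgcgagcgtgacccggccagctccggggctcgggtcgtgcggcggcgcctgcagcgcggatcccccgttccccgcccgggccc
In the Kif23 window 4 bases separate the CCAAT letters from the CHR letters, which begin 2 bases past the annotated start. Over the other 8 windows with both motifs, the gap of the nearest pair is 13 bases for Kif22, 17 for Kifc1, 19 for Kif4, 21 for Kif11, 26 for Kif27, 28 for Kif18b, 59 for Kif26b and 130 for Kif14. The Kif22 pair lies far upstream, at positions -233 and -215 from the start, while its other CHR letters are at position -17. The Kif15 window holds CHR letters at 2 places, 1 of them 19 bases before the start, and no CCAAT, and the window of Kif2c, not shown, holds CHR letters once and no CCAAT.

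**Figure D2:**
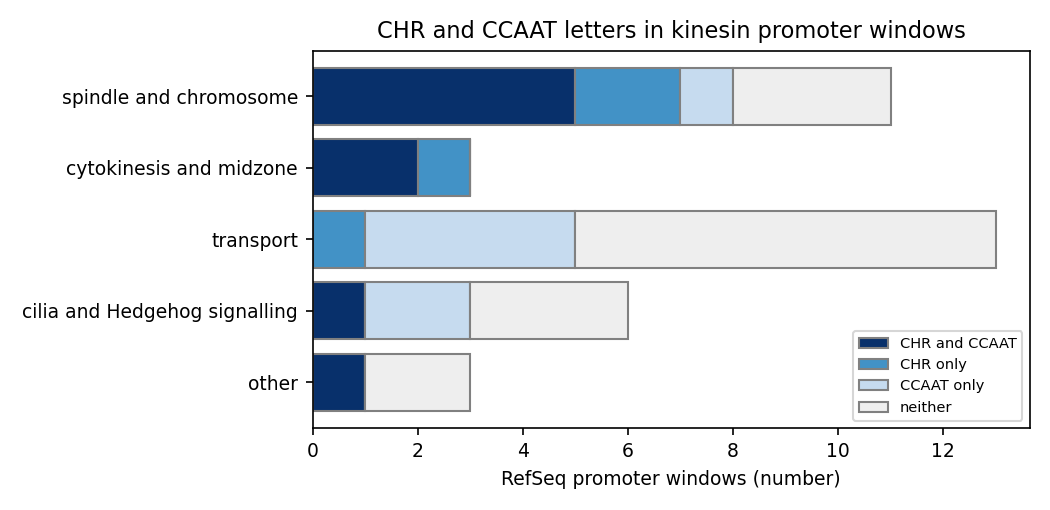
Number of RefSeq promoter windows of kinesin genes that hold CHR letters, CCAAT letters, both or neither, by role. Windows with CHR letters make up 7 of 11 for spindle and chromosome motors, 3 of 3 for cytokinesis motors and 1 of 13 for transport motors.

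The spindle and chromosome motors numbered 10, of which 9 were tested and 0 were called, 5 with a log2 fold change above 0 (including Kif18b and Kifc1, which lay below with upper-quartile factors) and 4 below. They summed to 1658 and 1596 CPM in controls and to 1678 and 1603 CPM in knockdowns. Kif4, a chromokinesin that shapes chromosome arms and the midzone, occupies 100625737 to 100727214 of chromosome X, plus strand, in mm10. It stood at 599 and 546.5 CPM (control) and at 588 and 584 CPM (knockdown), and these groups overlap. Of its exon bases 15.1% overlap Pdzd11, a gene on the other strand with between 72.5 and 77.2 CPM. The log2 fold change of Kif4 was 0.03 (SE 0.07, 95% interval -0.13 to 0.19). Kif22, the chromokinesin that pushes chromosome arms away from the poles, occupies 127027729 to 127042471 of chromosome 7, minus strand. The control values of 284 and 306 CPM were both under the knockdown values of 330.4 and 312 CPM, with a log2 fold change of 0.12 (SE 0.08, interval -0.06 to 0.30).

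Kif2c, which encodes the centromeric depolymerase MCAK, had 311 and 278 CPM in control libraries, and 279 and 274 CPM after knockdown. Control replicate 1 was the high library, and the other 3 were close together. Its paralog Kif2a, known for acting at spindle poles, had 88.4 and 98.3 CPM against 96.6 and 86.9 CPM, so the groups overlap. Kif2b, the third depolymerase of this subfamily, had no count in any library, which allows at most 0.0663 to 0.0838 CPM, counting error only, taking 3 counts as the limit. Of Kif2a's exon bases, 19.2% overlap Dimt1 on the other strand, and the sources used here do not say if reads were counted by strand.

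Kif11, the motor that slides antiparallel microtubules apart and keeps the spindle bipolar, was measured at 95.2 and 105 CPM in controls and at 104 and 82.7 CPM in knockdowns. Knockdown replicate 2 was the low library, and its partner lay within the control values. The log2 fold change was -0.09 (SE 0.14). Kifc1, the minus-end motor that bundles microtubules into poles, had 99.4 and 90.6 CPM without the knockdown and 97.0 and 93.4 CPM with it, a log2 fold change of 0.00 (interval -0.28 to 0.28). This value is uncertain, because 39.7% of the 50-base stretches of Kifc1 transcripts also occur in another gene, foremost its near copy Kifc5b, which had between 525 and 715 counts per library.

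Kif18a, a kinesin-8 that damps the oscillation of chromosomes at metaphase, had 118 and 105 CPM (control) and 108 and 104 CPM (knockdown). Control replicate 1 was the highest of these and the other 3 lay together. Kif18b, its relative on astral microtubules, had 60.6 and 64.4 CPM in controls with 68.4 and 55.9 CPM in knockdowns, which enclose the controls. The log2 fold changes of these genes were -0.07 (SE 0.12) and 0.00 (SE 0.16).

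Kif15, a kinesin-12 that can hold the spindle bipolar beside Kif11, was the member with the smallest p. The gene occupies 122951046 to 123018733 of chromosome 9, plus strand, and none of its exon bases overlaps another gene. Control libraries held 128 and 111 counts of it, and knockdown libraries 267 and 400, or 2.83 and 2.71 CPM against 6.27 and 11.2 CPM. The controls agree closely, both knockdowns lie above them, and the knockdowns differ from each other by more than the controls do. The fold change was 3.06 (95% interval 1.30 to 7.22), a log2 fold change of 1.62 (SE 0.57). edgeR gave an unadjusted p of 0.0144 and an adjusted p of 0.835. DESeq2 gave an adjusted p of 0.0258, the only call among the alternatives, over which the adjusted p ran from 0.0258 to 0.994. Leaving out 1 library at a time gave log2 fold changes between 1.17 and 2.01, at a lowest adjusted p of 0.820 by edgeR. In the knockdowns Kif15 stood at 0.791 CPM per kilobase on average, against 12.5 for Kif11.

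**Figure D3:**
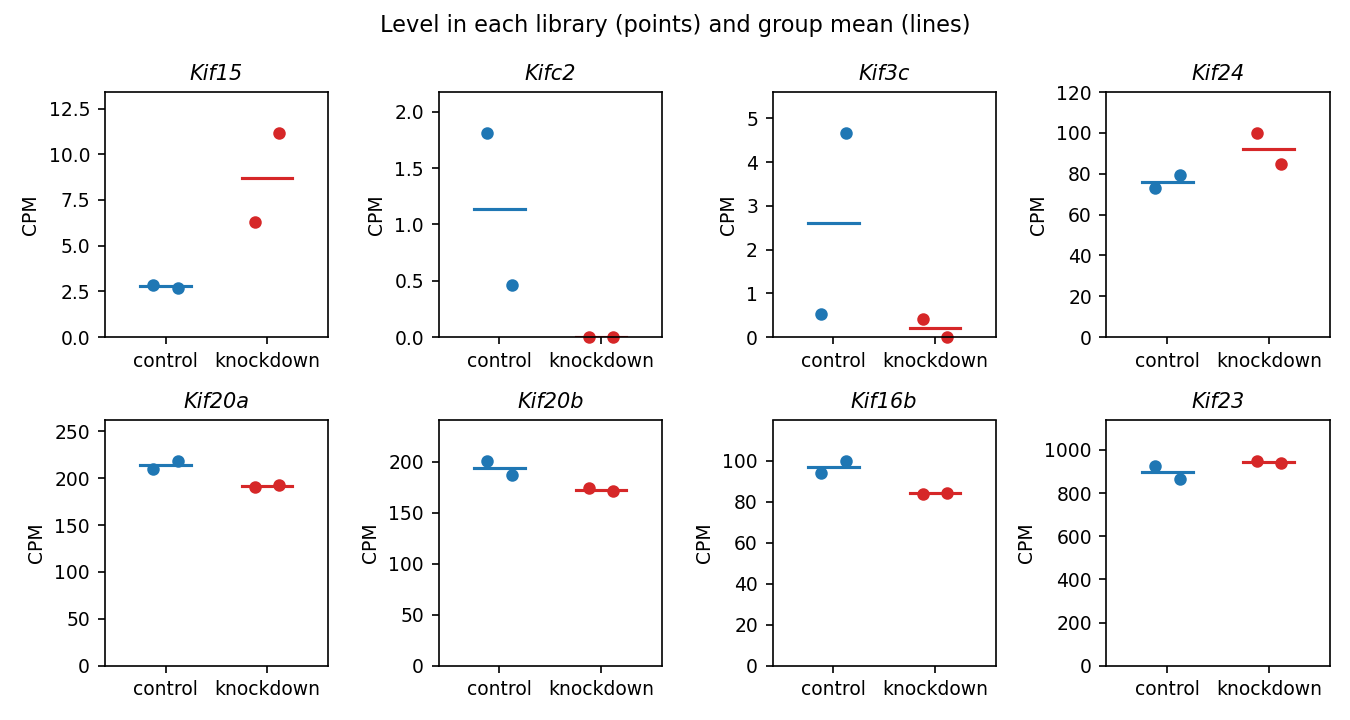
CPM in each library (points) and the mean of each group (lines) for 8 kinesins, with every axis starting at 0. Kif15 lies higher in both knockdowns at a few CPM, Kifc2 and Kif3c are at or near 0 there, and Kif20a, Kif20b, Kif16b, Kif24 and Kif23 are separated by small steps only.

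The cytokinesis and midzone motors were all tested, all 4 were without a call, and each interval lay within 2-fold in either direction. They summed to 1560 and 1501 CPM in controls and to 1530 and 1541 CPM in knockdowns. Kif23, the motor subunit of centralspindlin that works with Racgap1, occupies 61915905 to 61946774 of chromosome 9, minus strand. It had 926 and 867 CPM in controls, and 947 and 939.9 CPM in knockdowns. Both knockdowns were above both controls, with a log2 fold change of 0.07 (SE 0.06, interval -0.07 to 0.21). These knockdown values lay nearer to control replicate 1 than the 2 controls lay to each other. Kif23 alone made up between 19.9% and 21.6% of the family's counts, and it was in place 107 among all genes by mean CPM.

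Kif20a and Kif20b both had small differences without overlap of the groups. Kif20a, which brings the chromosomal passenger complex to the midzone, had 209.7 and 218 CPM in controls against 191 and 193 CPM in knockdowns. Kif20b, which acts late in cytokinesis, had 200.5 and 187 CPM against 174 and 171 CPM. In both genes the knockdowns lie close together under the controls, at 89.8% and 89.2% of the control mean. The log2 fold changes were -0.16 (SE 0.09) and -0.17 (SE 0.10), with unadjusted p of 0.114 for each and an adjusted p of 0.843 by edgeR. Of Kif20a's exon bases 29.3% overlap Cdc23 on the other strand, and Cdc23 itself was counted at between 3.32 and 14.3 CPM. Kif14, which works with citron kinase at the midbody, had 223.5 and 228 CPM (control) with 218 and 237 CPM (knockdown), so the groups overlap, and its log2 fold change was 0.01 (interval -0.19 to 0.20).

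Among the 17 transport motors, 15 were tested and 0 were called, 8 above 0 and 7 below, with a median log2 fold change of 0.05. Kif17, a kinesin-2 known for dendritic cargo in neurons, was by far the most abundant of them. Its 438 and 429.8 CPM in controls were both above its 400 and 421 CPM in knockdowns, a log2 fold change of -0.08 (SE 0.07, interval -0.25 to 0.08). The gene occupies 138250435 to 138301967 of chromosome 4, plus strand, so the RefSeq start printed above lies inside the GENCODE gene, and 1.62% of its exon bases overlap Sh2d5 on the same strand. The heterotrimeric kinesin-2 pairs Kif3a with Kif3b or Kif3c. Kif3a had 95.5 and 98.1 CPM against 83.7 and 95.7 CPM, whereas Kif3b had 21.1 and 34.9 CPM against 32.3 and 25.3 CPM. Neither pair of groups separates, and per kilobase Kif3a (23.3 to 27.4) stood above Kif3b (3.74 to 6.20) in every library. The adaptor of this motor, Kifap3, had between 301 and 354 counts per library.

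Conventional kinesin was represented mainly by Kif5c. The heavy chain Kif5c, best known from neurons, had 204 and 226 CPM in controls, and 243 and 199 CPM in knockdowns that enclose them. Kif5b, the heavy chain found in most tissues, had 23.3 and 16.3 CPM against 22.0 and 22.7 CPM. Kif5a, the other neuronal chain, had no count in the controls and 10 and 14 counts in the knockdowns; it did not reach the filter and was not tested. Per kilobase, Kif5c ranged from 27.8 to 34.0 and Kif5b from 2.04 to 2.92, an order that held in all 4 libraries.

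The kinesin-3 motors of vesicles and endosomes lay lower than Kif5c. Kif16b, which moves early endosomes, had 94.2 and 99.7 CPM in controls and 83.9 and 84.3 CPM in knockdowns. Its knockdown values nearly coincide under both controls, with a log2 fold change of -0.21 (SE 0.13, interval -0.48 to 0.07). Kif13b had 34.4 and 43.6 CPM without and 45.2 and 51.3 CPM with the knockdown. Kif13a had 14.9 and 14.3 CPM against 19.6 and 16.8 CPM. In both genes the knockdowns lie above the controls, with log2 fold changes of 0.31 (SE 0.20) and 0.33 (SE 0.30). Kif1b, which carries mitochondria and synaptic vesicle precursors, had 56.8 and 61.1 CPM in controls and 62.9 and 59.0 CPM in knockdowns, which overlap. Kif1c had 23.2 and 15.4 CPM in controls and values between them (16.3 and 17.96 CPM) in knockdowns. Its paralog Kif1a, a motor of neurons, had no count.

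The remaining transport motors were the kinesin-4 pair Kif21a and Kif21b and the kinesin-14 pair Kifc2 and Kifc3. Kif21b had 22.8 and 26.1 CPM in controls against 24.5 and 26.3 CPM in knockdowns, and Kif21a lay between 0.99 and 3.94 CPM. Kifc3, a minus-end motor of epithelial and Golgi traffic, had 84.3 and 61.7 CPM in controls, which differ by more than the knockdown values of 69.1 and 62.5 CPM do. Its counts are uncertain, since the strand setting is unknown. Kifc2 had 82 and 19 counts in controls and 0 in both knockdowns, at least 14.8-fold lower with 3 counts per library as the limit, counting error only. That limit rests on control replicate 1: it is 23.5-fold from that library alone and 6.02-fold from control replicate 2 alone. Its unadjusted p was 0.0419 and its adjusted p 0.835 by edgeR, and DESeq2 gave an adjusted p of 0.0538. Kif3c had 24 and 191 counts against 18 and 0, so its difference rests on control replicate 2. Without that library the log2 fold change went from -3.43 to -1.21, without knockdown replicate 1 the fitted value was -9.67 against a library at 0, and its unadjusted p with all libraries was 0.0436. A share of 40.7% of Kif3c's exon bases overlaps genes on the other strand.

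Motors of cilia and Hedgehog signalling numbered 6, of which 3 were tested and 0 were called. Kif24, a kinesin-13 that holds back cilia at the mother centriole, had 72.9 and 79.3 CPM in controls, below its 100 and 84.7 CPM in knockdowns. Its 95% interval of -0.02 to 0.59 around a log2 fold change of 0.29 includes 0, and edgeR gave an unadjusted p of 0.0642 and an adjusted p of 0.835. Kif9, of motile cilia, had 18.04 and 10.1 CPM against 11.2 and 17.1 CPM, with replicates that differ more than groups do. Kif27, a relative of Kif7, had 7.63 and 7.87 CPM in controls, both slightly above its 7.38 and 6.84 CPM in knockdowns, with a log2 fold change of -0.12 (SE 0.44). Kif7, the kinesin of the Hedgehog pathway, and Kif6 had no count, and Kif19a, which shortens cilia, had 63 counts in control replicate 2 and none elsewhere.

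Of the other members, Kif26b had 6.96 and 15.1 CPM in controls and 9.82 and 6.93 CPM in knockdowns, and its paralog Kif26a lay between 1.19 and 5.33 CPM. Both are motors that have lost ATP-driven movement. Kif28 had 38 counts in knockdown replicate 2 only, and Kif12 had none. In all, 5 members (Kif1a, Kif2b, Kif6, Kif7 and Kif12) had no count in the 4 libraries, and 3 (Kif5a, Kif19a and Kif28) had counts but too few for the filter.

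**Figure D4:**
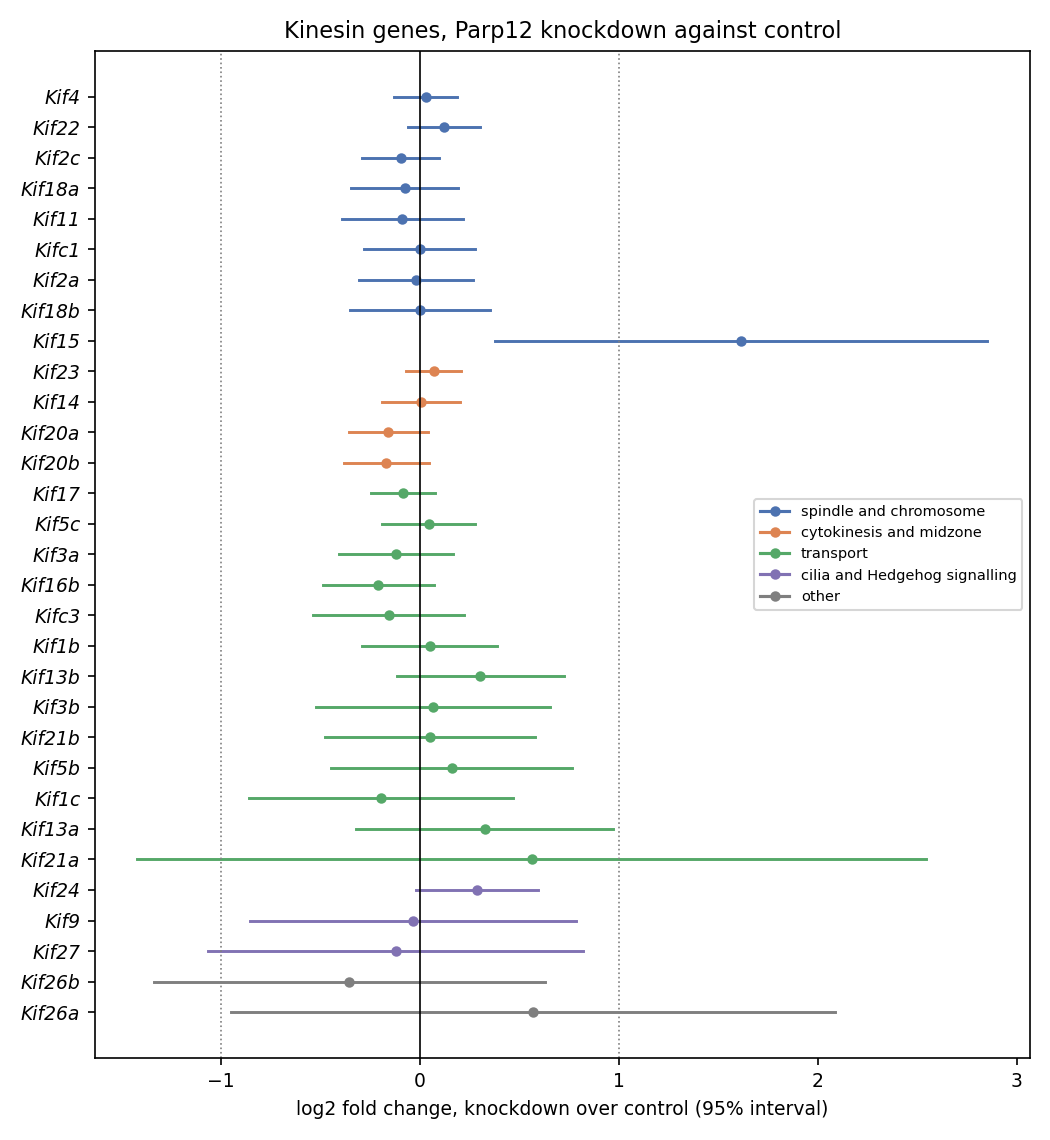
Log2 fold change (knockdown over control, points) with its 95% interval (lines) by edgeR for 31 tested kinesins, grouped by role and ordered by level within a role. Dotted lines mark a 2-fold difference; Kifc2 and Kif3c, whose intervals run beyond the axis, are not drawn, and of those shown only the interval of Kif15 leaves out 0.

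Precision followed the level. Of the 33 tested members, 26 (78.8%) had a 95% interval within 2-fold in either direction, where 46.7% of all tested genes did, of which 4283 had a mean of at least 50 CPM. Among the 19 members with a mean of at least 50 CPM, the intervals of 18 lay within 1.5-fold, as did 91.0% of all genes of that level. The exception was Kif24, whose interval reached 1.51-fold. For these 19 members the median size of the log2 fold change was 0.08, the median log2 ratio between the 2 controls was 0.11 and that between the 2 knockdowns was 0.08, all without sign. These sizes are of the same order, but the first compares means of 2 libraries and the others compare single libraries, so they are not like measures.

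Genes that work with kinesins gave no call either. Over all tested genes, 0.0063% were called by edgeR and 50.4% had a log2 fold change above 0. At an unadjusted p under 0.05 by edgeR, 2.94% of all tested genes were higher and 2.57% lower. Kinesin light chains and cargo adaptors had 19 tested members, 0 called, of which 4 lay above 0 and 15 below (median log2 fold change -0.10), and none at an unadjusted p under 0.05. The member with the smallest p was Klc1, a light chain, at 50.1 ± 8.01 CPM (SD, n = 2) in controls and 41.8 ± 0.501 CPM in knockdowns. Spindle partners, from Tpx2 and Aurka to Prc1 and Racgap1, had 26 tested members, 0 called, none at an unadjusted p under 0.05 and a median of 0.02. Mapre1, which tracks growing microtubule ends, had the smallest p, with 322 ± 17.6 CPM in controls and 289.8 ± 14.6 CPM in knockdowns. Cytoplasmic dynein and dynactin, the minus-end transport machine, had 29 tested members, 0 called, and a median of 0.00. Actr10, a dynactin subunit, had 58.7 CPM on average in controls and 44.6 CPM in knockdowns (log2 fold change -0.40, SE 0.17, unadjusted p 0.0394). Dctn6, another dynactin subunit, went the other way, from 39.1 and 34.2 CPM in controls to 48.0 and 50.8 CPM in knockdowns (log2 fold change 0.42, SE 0.19, unadjusted p 0.0424). These were the only members of that list at an unadjusted p under 0.05. Tubulins had 17 tested members, 0 called, and a median of 0.02, with 1 at an unadjusted p under 0.05, Tuba3b, at 45.6 ± 10.8 CPM in controls and 30.8 ± 0.509 CPM in knockdowns. All 3 kinesins that the name rule leaves out were tested and 0 were called. Cenpe, the kinesin-7 of kinetochores, had the smallest p of these, with 13231 and 11972 counts in controls, 10644 and 9328 in knockdowns and a log2 fold change of -0.20 (SE 0.08, unadjusted p 0.0336, adjusted p 0.835 by edgeR).

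Tail signals at the 3′ ends of the family were about as frequent as in all tested genes. Stored oocyte messengers are often activated through a cytoplasmic polyadenylation element (CPE), bound by CPEB ahead of the polyadenylation signal. Principal GENCODE transcripts were searched for AATAAA or ATTAAA in the last 50 bases and for TTTTAT or TTTTAAT within 100 bases before that signal. A signal was found in 24 of 33 tested members (72.7%) and in 77.5% of all tested genes with a protein-coding transcript. A signal with a CPE was found in 5 members (15.2%) and in 15.2% of those genes. The 5 were Kif20b, Kif18a, Kif26a, Kifc1 and Kif5b. The 30 bases that end with the signal are shown for Kif20b, at chr19:34975693-34975722, and Kif18a, at chr2:109341703-109341732, both on the plus strand of mm10, as division motors whose CPE lies closest to the signal; capitals mark the CPE.
Kif20b: gtatcttgtatataaTTTTAATtcaataaa
Kif18a: tgctaataTTTTATtacttggtatattaaa
The CPE begins 9 bases before the signal in Kif20b and 16 bases before it in Kif18a. Their log2 fold changes, given above, were among the values without a call.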

How the data were processed

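Messenger RNA was measured in 4 libraries (2 control, 2 Parp12 knockdown), grouped by their titles. Per the labels' protocols, poly(A) RNA was isolated before library construction. The authors deposited raw counts per gene with summed exon lengths; per the submitters' processing notes, the build was mm10 and the tools included STAR 2.7.5b, Trim Galore 0.6.4, DESeq2 1.28.1 and featureCounts 2.0.0, each without a stated role. The sources used here do not give the strand setting, the handling of reads with several alignments or the replicate origin. Coordinates of all 41 members equal those of GENCODE M21 (mm10). 0 sample columns lay outside the series.

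Counts were fitted in R 4.3.3 with edgeR 4.0.16 over the whole table: filterByExpr (minimum count 10, total 15), TMM, estimateDisp, robust glmQLFit without the legacy option and glmQLFTest, two-sided, with Benjamini-Hochberg adjustment over 15868 genes at 0.05. The 95% interval uses the SE from the F statistic. Replicate counts differed beyond sampling noise (chi-square 34.7 and 30 per degree of freedom). An exact two-sided permutation test of 2 against 2 cannot go below 0.333. Alternatives were other scalings and filters, a replicate block, DESeq2 1.42.0, limma-voom (limma 3.58.1), leaving out each library and, chosen after seeing the data, edgeR's legacy fit and another gene length.

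Members, gene lists and roles were chosen with earlier results of these data known. Members with a mean of at least 5 CPM or an unadjusted p under 0.05 are given in every library, and in each list of related genes the member with the smallest p is named; Kifap3, overlapping neighbours and further partners were named after their values were seen. A gene related to 1 member's values is not reported here.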

Additional observations from a re-analysis of the deposited data

How the results depend on the processing

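The number of genes called was 1 with the other scalings, without the low-count filter, with the replicate block and with the legacy fit, 8 with at least 1 CPM required in both libraries of a group, 305 with DESeq2 and 0 with limma-voom, and ran from 1 to 2 when a library was left out. The number of kinesins called was 0 throughout, apart from 1 with DESeq2 (Kif15, adjusted p 0.0258). The family's median log2 fold change ran from -0.0442 to 0.00285 when a library was left out and stayed within -0.00427 and 0.00327 otherwise. In the fit with the replicate block it was -0.00162 and the block changed no call. Libraries with the same number did not deviate together (correlation 0.0143 over 8430 genes). This cannot show whether they shared a collection or a preparation, since the replicate origin is not given. Kif23's share of the family sum per kilobase was 15.8% as CPM and 23.5% with the principal transcript length. TPM only rescales each library, so it gives the same 15.8% by construction.

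Of 31 kinesins followed singly, 15 kept their sign in every setting. Apart from left-out libraries, signs reversed only for values near 0: Kif9 (0.0046 with DESeq2, 0.0061 with the legacy fit), Kif18b (-0.0022 with upper-quartile factors and with limma-voom, -0.0016 with the replicate block, -0.0090 with DESeq2, -0.0079 with the legacy fit) and Kifc1 (-0.0015 with median-of-ratios factors, -0.0043 with upper-quartile factors, -0.0009 with the stricter filter, -0.0006 with the replicate block, -0.0005 with DESeq2). With 1 library left out, log2 fold changes crossed 0 for Kif21b (-0.0317 to 0.1363), Kif14 (-0.0522 to 0.0699), Kif26b (-0.8164 to 0.2718), Kif5c (-0.1107 to 0.1778), Kif18a (-0.1669 to 0.0299), Kif3b (-0.255 to 0.449), Kif4 (-0.0455 to 0.1122), Kif2c (-0.184 to 0.0019), Kifc3 (-0.3668 to 0.1074), Kif9 (-0.3861 to 0.481), Kif1c (-0.4566 to 0.1557), Kif18b (-0.1586 to 0.1307), Kif2a (-0.1015 to 0.0494), Kifc1 (-0.0748 to 0.0846), Kif5b (-0.0725 to 0.4654) and Kif11 (-0.2699 to 0.0602). The cause was not tested. The stricter filter removed Kif3c and Kifc2. Depth sets the limit for members without counts, at 0.0663 to 0.0838 CPM, counting error only.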
